A study of Mus musculus with 6 samples.

Results

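Expression of 10 genes of the epithelial-mesenchymal transition (EMT) was described in 6 mouse tumours: the transcription factor genes Snai1, Snai2, Twist1, Twist2, Zeb1, Zeb2 and Prrx1, and the mesenchymal markers Vim, Cdh2 and Cdh11. They were taken by symbol from the deposited table of 15295 genes, and all 10 were listed there and passed the filter on low counts that left 14498 genes for testing. The labels name NA13, a line of mouse bladder cancer cells, as the source of the tumours and C57BL/6 as the strain. Those called control carried a scrambled shRNA (3 tumours) and those labelled shDdr2 an shRNA against Ddr2 (3 tumours), and all 6 also received IgG. Ddr2 encodes a receptor for fibrillar collagen. RNA came from whole tumours, so in every value below fewer cells of a type and less RNA per cell cannot be told apart. Ddr2 was not lower under its own shRNA label, so directions are given between libraries as labelled.

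In the EMT, epithelial cells loosen their E-cadherin junctions and take on traits of motile mesenchymal cells. SNAI1 and SNAI2 are zinc finger repressors and ZEB1 and ZEB2 are zinc finger homeodomain repressors, all of which bind E-box letters in promoters of epithelial genes such as Cdh1. TWIST1 and TWIST2 are basic helix-loop-helix factors, and PRRX1 is a paired-type homeodomain factor of limb and connective tissue mesenchyme. Vimentin (Vim) is the intermediate filament of mesenchymal cells, N-cadherin (Cdh2) is the cadherin that often replaces E-cadherin, and cadherin 11 (Cdh11) is typical of fibroblasts and bone-forming cells. Fibroblasts, blood vessel cells and leukocytes of a tumour express several of these genes too, and Snai2 is also known from basal cells of stratified epithelia.

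Promoter sequences are shown for Snai1, because its protein is known to bind an E-box of its own promoter, and for Twist1 and Twist2, close relatives whose levels differed in pattern across the 6 tumours. The windows are the 250 bases before the RefSeq start (assembly GRCm38.p6), 5′ to 3′ on the gene's strand, in which capitals mark the E-box letters CAGGTG or CACCTG, read on both strands, and the CCAAT letters or their complement ATTGG. RefSeq windows were at hand for 6 of the 10 genes (Snai1, Twist1, Twist2, Zeb2, Prrx1 and Vim). The Snai1 window is chr2:167537945-167538194, the Twist1 window chr12:33957421-33957670 and the Twist2 window chr1:91801211-91801460, all on the plus strand.
Snai1: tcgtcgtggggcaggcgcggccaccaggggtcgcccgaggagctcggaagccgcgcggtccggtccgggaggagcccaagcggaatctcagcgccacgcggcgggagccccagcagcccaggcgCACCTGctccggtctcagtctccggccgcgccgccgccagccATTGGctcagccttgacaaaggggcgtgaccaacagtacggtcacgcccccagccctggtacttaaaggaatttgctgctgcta
Twist1: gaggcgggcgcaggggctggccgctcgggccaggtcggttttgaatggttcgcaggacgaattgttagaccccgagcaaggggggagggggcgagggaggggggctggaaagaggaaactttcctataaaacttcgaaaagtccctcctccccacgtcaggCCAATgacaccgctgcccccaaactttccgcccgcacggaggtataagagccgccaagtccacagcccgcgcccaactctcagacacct
Twist2: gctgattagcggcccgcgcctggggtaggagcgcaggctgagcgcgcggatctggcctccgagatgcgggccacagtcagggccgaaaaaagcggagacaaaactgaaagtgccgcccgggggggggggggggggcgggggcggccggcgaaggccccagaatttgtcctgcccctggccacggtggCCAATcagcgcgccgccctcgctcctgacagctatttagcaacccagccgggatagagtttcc

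The E-box letters CACCTG began at position -126 from the start of Snai1, and the ATTGG letters at -84. Neither CAGGTG nor CACCTG occurred in the windows of Twist1, Twist2, Zeb2, Prrx1 and Vim. Over all 32851 windows of the same length, 17.2% held the E-box letters. The CCAAT letters stood at -89 in Twist1 and at -63 in Twist2, and 33.8% of all windows held them. These are matches of letters in a short window, which say nothing of binding.

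Library totals ran from 15560571 to 19522985 counts. The first principal component, with 50.1% of the variance, set the library labelled shDdr2 1 (-85.2) apart from the other 5 (-16.3 to 45.7). Epithelial markers ranged widely in level. The basal keratin Krt5 was at 4939 to 5954 CPM (counts relative to library totals scaled by TMM), and Cdh1, which encodes E-cadherin, at 222 to 504 CPM. The simple keratin gene Krt8 was at 0.289 CPM (4 counts) in the library labelled shDdr2 1 and at 10.05 to 30.4 CPM in the other 5, and Krt19 at 49.8 CPM there and up to 617 CPM in control 1. The urothelial plaque genes Upk1a and Upk3a were not in the table, while Upk1b and Upk2 were. Ddr2 was at 6.42, 16.7 and 20.5 CPM in control 1 to 3 and at 4.84, 19.0 and 28.6 CPM in the libraries labelled shDdr2 1 to 3, a fitted log2 difference of 0.27 (SE 0.66, interval -1.27 to 1.81). Nothing in the labels says that the tumours of a group came from separate animals, and p-values measure the spread between these libraries alone.

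Levels of different genes were compared per length, as CPM per kilobase of merged GENCODE exons (RPKM). Vim and Snai2 stood highest, at 44.5 ± 19.8 and 33.8 ± 8.09 RPKM (SD over all 6 libraries). Vim exceeded Snai2 in 4 of 6 libraries, so at these lengths the neighbours did not differ beyond their spread. With the longest transcript as length, the mean of Vim was 72.2 RPKM and that of Snai2 stayed at 33.8 RPKM. Twist2 followed at 13.96 ± 4.66 RPKM and Cdh11 at 5.59 ± 2.43 RPKM, each in its place in the order of means in at least 5 of 6 libraries. Twist1 (3.53 ± 1.54), Snai1 (3.06 ± 1.34) and Prrx1 (3.05 ± 1.62 RPKM) overlapped, with Twist1 above Snai1 in 3 of 6 libraries and Snai1 above Prrx1 in 3 of 6. Zeb1 (1.11 ± 0.644) and Zeb2 (1.04 ± 0.472 RPKM) lay below Prrx1 in all 6 libraries and did not separate from each other. Cdh2 was lowest in every library at 0.201 ± 0.154 RPKM.

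Within each of 2 families the second member was the more abundant. Snai2 was above Snai1 and Twist2 above Twist1 in RPKM in every library. The level of Twist2 may include reads of its antisense gene Gm29100, since the strand setting of the counting is not given. The unlike size of the members is plotted on a log axis.

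**Figure D1:**
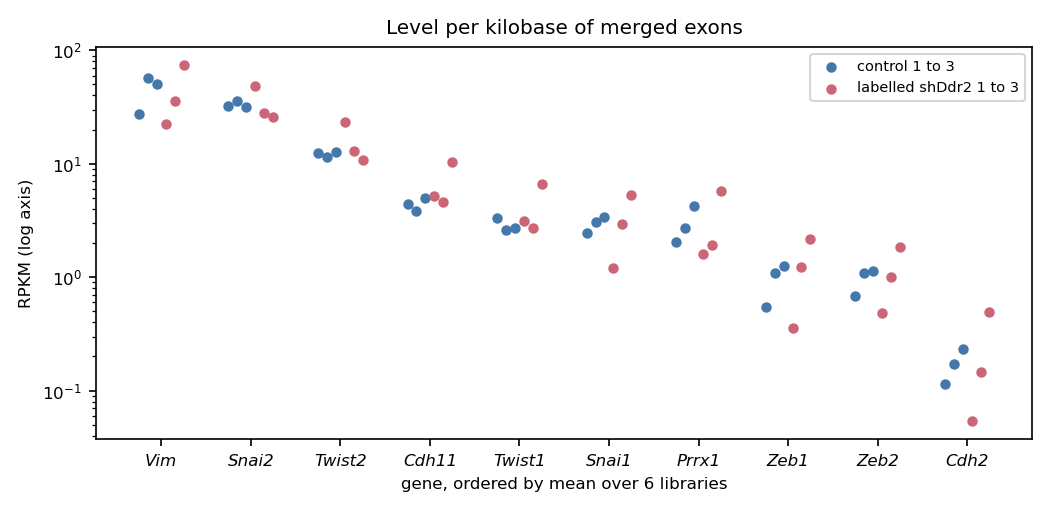
Level of the 10 genes in RPKM (log axis), ordered by their mean over the 6 libraries, with 1 point per library (blue, control 1 to 3; red, labelled shDdr2 1 to 3, left to right). Means run from 44.5 RPKM for Vim to 0.201 RPKM for Cdh2, and for 8 genes, all but Twist1 and Cdh11, the lowest and the highest point are both red.

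The library labelled shDdr2 3 held the highest value of 8 of the 10 genes, and that labelled shDdr2 1 the lowest value of 6 of those 8. Across all tested genes, 14.6% were highest in the first and lowest in the second of these libraries. Snai2 and Twist2 ran the other way, highest in shDdr2 1 and lowest in shDdr2 3, as 17.2% of all tested genes did. These library orders were read from the data after the values had been seen and are a description. In the next paragraphs the genes are taken in these patterns.

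Snai1 (Entrez 20613; chromosome 2, 167538195 to 167542814, plus strand, GRCm38), the archetypal repressor of E-cadherin, was at 3.94, 5.02 and 5.47 CPM in control 1 to 3 (73, 84 and 87 counts). In the libraries labelled shDdr2 1 to 3 it was at 1.95, 4.77 and 8.61 CPM (27, 98 and 150 counts). The 3 controls thus lay between the lowest and the highest library labelled shDdr2. The fitted log2 fold change, labelled shDdr2 over control, was 0.09 (SE 0.53, 95% interval -1.14 to 1.33).

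Zeb1 (Entrez 21417; chromosome 18, 5591860 to 5775467, plus strand) was at 5.56, 11.2 and 13.01 CPM in control 1 to 3 and at 3.68, 12.6 and 22.4 CPM in the libraries labelled shDdr2 1 to 3. It spanned 6.08-fold between the lowest and the highest library, and 93.6% of tested genes had a smaller SD of log2 CPM over the 6 libraries. The order of the libraries from low to high (shDdr2 1, control 1, control 2, shDdr2 2, control 3, shDdr2 3) was the same for Zeb1 as for Ddr2, and no other of the 10 genes had that order in full. The mean of the 13 fibroblast markers described below had this order too. The share of all genes with it was not counted. The fitted difference was 0.38 on the log2 scale (SE 0.63, interval -1.08 to 1.85).

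Its paralogue Zeb2 (Entrez 24136; chromosome 2, 44983632 to 45117395, minus strand), which is also a factor of macrophages, was at 13.8, 21.6 and 22.7 CPM in control 1 to 3. It was at 9.60, 20.1 and 37.0 CPM in shDdr2 1 to 3. The fitted difference was 0.20 (SE 0.47, interval -0.91 to 1.32). Zeb2 shares 653 exonic bases with its antisense gene Zeb2os, and Zeb1 shares 198 with Gm10125 on the opposite strand. The strand setting of the counting is not given in the sources used here, so reads of such partners may be mixed.

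Prrx1 (Entrez 18933; chromosome 1, 163245119 to 163313710, minus strand) was at 22.7, 30.3 and 47.3 CPM in control 1 to 3 and at 17.8, 21.2 and 63.3 CPM in the libraries labelled shDdr2 1 to 3. Here 2 of the 3 libraries labelled shDdr2 lay below every control, and the remaining one lay above them all. The log2 fold change was 0.03 (SE 0.52, interval -1.1998 to 1.26).

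Vim (Entrez 22352; chromosome 2, 13573927 to 13582826, plus strand) was the most abundant marker. It was at 129, 270.05 and 239 CPM in control 1 to 3, where 2392, 4520 and 3799 reads were counted, and at 106, 170 and 354 CPM in the libraries labelled shDdr2 1 to 3. The groups overlapped throughout, with a log2 fold change of -0.02 (SE 0.47, interval -1.13 to 1.09).

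Cdh2 (Entrez 12558; chromosome 18, 16588877 to 16809246, minus strand) was close to the limit of detection. It had 17, 23 and 30 counts in control 1 to 3 (0.917, 1.37 and 1.89 CPM). Its counts were 6, 24 and 69 in those labelled shDdr2 1 to 3 (0.433, 1.17 and 3.96 CPM). The 6 counts of the lowest library have an exact Poisson 95% interval of 2.20 to 13.1 counts, which covers counting error only. The range of 9.14-fold was the widest of the 10 genes, and the log2 fold change was 0.42 (SE 0.76, interval -1.35 to 2.20).

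Twist1 and Cdh11 formed a second pattern, with 5 libraries close together and the library labelled shDdr2 3 above them. Twist1 (Entrez 22160; chromosome 12, 33957671 to 33959829, plus strand) was at 5.45, 4.24 and 4.46 CPM in control 1 to 3 and at 5.13, 4.43 and 10.8 CPM in the libraries labelled shDdr2 1 to 3. Cdh11 (Entrez 12552; chromosome 8, 102632095 to 102785642, minus strand) was at 39.6, 34.2 and 44.4 CPM and at 46.4, 41.0 and 93.0 CPM in the same order. Cdh11 differed by 0.61 on the log2 scale (SE 0.34, interval -0.18 to 1.40), and its unadjusted p of 0.111 was the smallest of the 10 genes in edgeR. Twist1 differed by 0.52 (SE 0.42, interval -0.45 to 1.497). Without the library labelled shDdr2 3 the differences were 0.15 for Cdh11 and 0.02 for Twist1.

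Snai2 and Twist2 made up the third pattern. Snai2 (Entrez 20583; chromosome 16, 14705852 to 14709385, plus strand) was at 64.8, 72.1 and 64.4 CPM in control 1 to 3, where 1201, 1207 and 1025 reads were counted. It was at 98.6, 57.2 and 52.4 CPM in the libraries labelled shDdr2 1 to 3, from 1366, 1174 and 913 counts. The controls lay close together, 1 library labelled shDdr2 was above them and 2 were below. Twist2 (Entrez 13345; chromosome 1, 91801461 to 91848028, plus strand) was at 39.8, 36.4 and 40.1 CPM and at 74.0, 41.2 and 34.2 CPM in the same order. The fitted differences were 0.05 for Snai2 (SE 0.27, interval -0.60 to 0.69) and 0.36 for Twist2 (SE 0.31, interval -0.36 to 1.0801), and -0.29 and -0.04 without the library labelled shDdr2 1. Twist2 shares 1477 exonic bases with its antisense gene Gm29100.

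**Figure D2:**
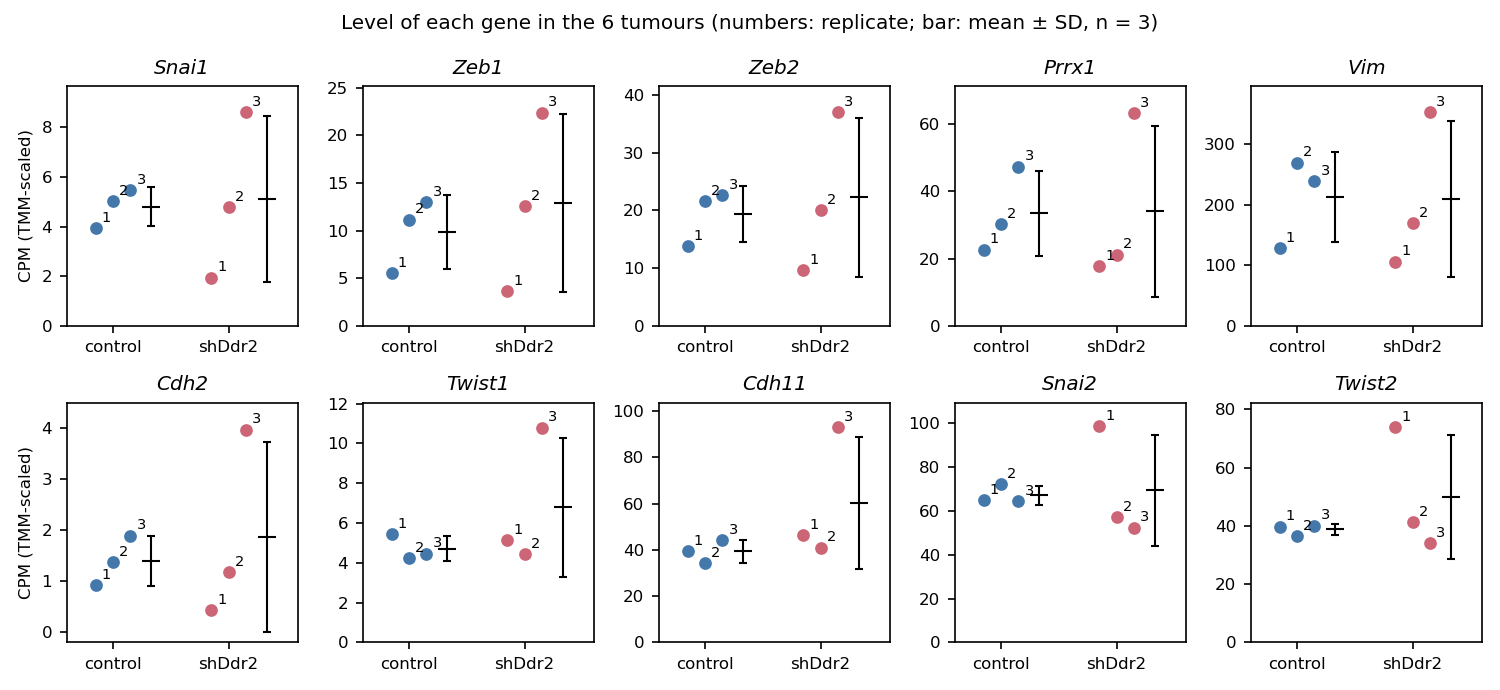
Level of each gene in CPM (linear axis) in control tumours (blue) and those labelled shDdr2 (red), with the replicate number beside each point and the mean ± SD of 3 libraries as a bar. In no panel do the groups separate, and in 8 panels the red point 3 is the highest of all, while in those of Snai2 and Twist2 the red point 1 is.

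The comparison asks whether these genes differ between tumours under the shRNA labels. In the edgeR quasi-likelihood test, 0 of the 10 genes passed an adjusted p of 0.05, as did 0 (0%) of all 14498 tested genes, and 0 of the 10 had an unadjusted p under 0.05, against 1.44% of all genes. DESeq2 called 0 of the 10 genes, against 0.276% of all genes with an adjusted p. With voom, limma called 0 of the 10 and 0 of all 14498 genes, as it did on the log2 values of the authors. The groups did not overlap in 0 of the 10 genes, against 4.32% of all tested genes (2.21% of genes with every shDdr2 library above the controls, 2.11% with every one below). Fitted values were above 0 for 9 of the 10 genes, where 57.1% of all genes were, and the median member was at 0.28 against 0.04 over all genes. That count was 4 of 10 without the library labelled shDdr2 3, with a median of -0.33, and 5 of 10 with limma on either kind of value.

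The narrowest of the 10 intervals was that of Snai2 and the widest that of Cdh2. On counts simulated for this comparison, a log2 change of 1 was called in 2.99% of the genes that had it, and a log2 change of 2 in 77.6%. In that simulation, differences of 2-fold were thus mostly not detected with 3 libraries a group. Its genes varied independently and no library was set apart, as shDdr2 1 was here. The shares need not hold for these 10 genes.

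**Figure D3:**
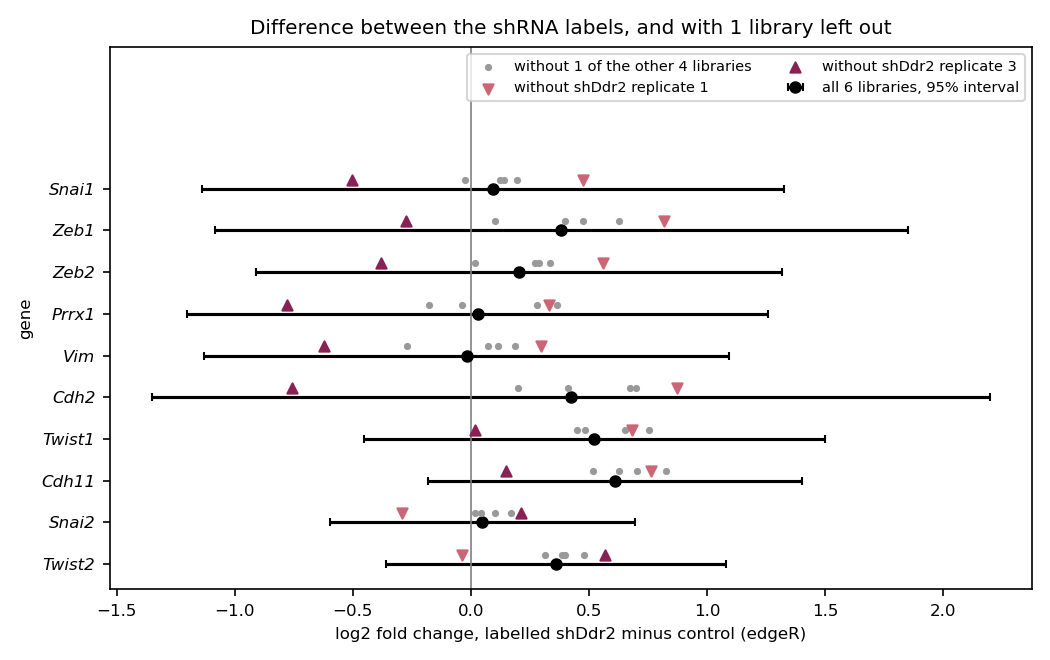
Fitted log2 fold change of each gene, labelled shDdr2 minus control, with its 95% interval (black) and the values when 1 library was left out (triangles for shDdr2 1 and 3, grey points for the others). All 10 intervals include 0, and leaving out shDdr2 3 moved Snai1, Zeb1, Zeb2, Prrx1 and Cdh2 below 0.

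Epithelial genes had lower fitted values in the libraries labelled shDdr2, none past the test. Of 15 tested epithelial junction and keratin genes, 15 had a fitted value below 0, against 42.9% of all tested genes. Of the 15, 6 lay without overlap below the controls, against 2.11% of all genes, and 2 had an unadjusted p under 0.05 in edgeR, against 1.44%. Skeletal muscle markers moved with the same labels: 10 of 10 had higher fitted values, against 57.1% of all tested genes, with a median of 4.602. Of these 10 markers, 8 lay without overlap above the controls, against 2.21% of all genes. EdgeR called 0 of the 10 markers, against 0% of all genes, and DESeq2 called 3, against 0.276%. Their part in the epithelial values was not tested. The median of the epithelial junction and keratin list was -0.28. Cdh1 was at 504, 362 and 424 CPM in control 1 to 3. In the libraries labelled shDdr2 1 to 3 it was at 222, 440.2 and 447 CPM. It was lowest in shDdr2 1, as Snai1, Zeb1 and Zeb2 were. So were 9 of the 15 genes of its list, Cdh1 included, and 34.6% of all tested genes. Epcam, an epithelial adhesion molecule, was at 267 ± 31.3 and 204 ± 11.1 CPM (SD, n = 3 each), with edgeR's unadjusted p = 0.0828, and Ocln, the tight junction protein occludin, at 44.2 ± 17.3 and 38.5 ± 9.53 CPM. Without control 1, 12 of the 15 genes were lower and the median was -0.13; without control 1 and the library labelled shDdr2 1 these values were 11 of 15 and -0.11.

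Of 14 genes of factors that hold cells in the epithelial state, 3 had higher and 11 lower fitted values, with a median of -0.09 that was 0.06 without the library labelled shDdr2 1. Grhl2, a grainyhead factor that opposes Zeb1, was at 121 ± 8.51 and 119 ± 42.5 CPM, Ovol2 at 5.53 ± 1.65 and 4.54 ± 0.879 CPM, and the splicing regulator Esrp1 at 151 ± 16.8 and 157 ± 25.3 CPM (SD, n = 3 each). The gene of the list with an unadjusted p under 0.05 in edgeR was Elf3, an epithelial ETS factor, at 134 ± 29.0 and 77.2 ± 22.4 CPM (log2 fold change -0.79, SE 0.28, interval -1.45 to -0.14). It is named for that value, and 0 of the 14 passed after adjustment.

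Of 18 other mesenchymal genes, 15 had higher and 3 lower fitted values, with a median of 0.29 and 0 past the test. Fn1, fibronectin, was at 394, 520 and 707 CPM in control 1 to 3 and at 163, 711 and 1269 CPM in the libraries labelled shDdr2 1 to 3. In Sparc, a matrix glycoprotein, the highest library was likewise shDdr2 3, at 1069.98 CPM against 345 to 578 CPM in the other 5. S100a4 went against this order and was highest in shDdr2 1, at 548 CPM. Of these 18 genes, 15 were highest in the library labelled shDdr2 3 and lowest in that labelled shDdr2 1, and the median was -0.44 without shDdr2 3.

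Among partners of the EMT factors, of 13 E protein, corepressor and Id genes, 8 had higher and 5 lower fitted values, between -0.30 and 0.24. Kdm1a, the histone demethylase recruited by SNAI1, was at 82.0 ± 2.56 and 81.5 ± 2.32 CPM, Tcf3, an E protein partner of TWIST1, at 84.5 ± 19.3 and 87.1 ± 12.3 CPM, and the corepressor Ctbp1 at 192 ± 26.6 and 172 ± 11.9 CPM (SD, n = 3 each). Across the 6 libraries Kdm1a spanned 1.07-fold, the least of the 13, and Rcor1, a corepressor gene named for the widest span, 2.57-fold. The 4 genes of SNAI1 protein turnover divided into 2 higher and 2 lower, with Gsk3b, the kinase that marks SNAI1 for degradation, at 129 ± 21.3 and 111 ± 34.8 CPM. The ubiquitin ligase genes Fbxl14 and Btrc had fitted log2 fold changes of -0.19 and 0.14.

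Of the other factors linked to EMT, 12 of 14 could be tested, and 3 had higher and 9 lower fitted values. Snai3 was at 1.34 ± 0.217 and 0.752 ± 0.463 CPM, Prrx2 at 5.40 ± 0.495 and 6.70 ± 3.18 CPM, and Foxc2 at 0.649 ± 0.148 and 1.03 ± 0.383 CPM (SD, n = 3 each). Prrx2 was highest in the library labelled shDdr2 3 (10.2 CPM), as Prrx1 was. Among 10 genes of TGF-beta input, 3 had higher and 7 lower fitted values, with the ligand Tgfb1 at 148 ± 15.03 and 134 ± 28.9 CPM, its receptor Tgfbr2 at 151 ± 25.7 and 168 ± 67.1 CPM and Smad3 at 71.5 ± 12.9 and 60.8 ± 30.2 CPM. Of 7 tested cadherins and catenins, 2 had higher and 5 lower fitted values. P-cadherin (Cdh3), the cadherin of basal epithelium, was at 157 ± 23.8 and 151 ± 29.2 CPM. The fitted log2 fold changes of Ctnnb1 and Ctnnd1, which encode beta- and p120-catenin, were -0.18 and 0.04. In none of these lists did a gene pass the edgeR test.

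Markers of stromal cells moved with the first pattern of EMT genes. The mean of 13 fibroblast markers deviated from its own average by -0.97 log2 units in the library labelled shDdr2 1, by -0.42 in control 1 and by 1.24 in that labelled shDdr2 3. Their summed level was 316 to 458 CPM in control tumours and 305 to 770 CPM in those labelled shDdr2. Pdgfra, a receptor that marks fibroblasts, was at 6.42, 12.7 and 24.8 CPM in control 1 to 3 and at 5.78, 16.9 and 30.6 CPM in the libraries labelled shDdr2 1 to 3. The matrix proteoglycans Dcn and Lum were both highest in the library labelled shDdr2 3, at 173 and 42.9 CPM. Of the 13 markers, 10 were highest in shDdr2 3 and lowest in shDdr2 1, as were 7 of 8 endothelial and 5 of 10 pericyte and smooth muscle markers. This order was not confined to stromal lists. It was that of 4 of 7 cadherins and catenins, 4 of 10 genes of TGF-beta input and 14.6% of all tested genes. Of the epithelial lists, 4 of 14 factor genes had it, Grhl2 and Esrp1 among them, and 1 of 15 junction and keratin genes.

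Leukocyte, vessel and muscle markers were present as well. Summed levels of the 8 endothelial markers were 137 to 275 CPM in control tumours and 91.3 to 372 CPM in those labelled shDdr2, and those of the 10 pericyte and smooth muscle markers 381 to 594 and 421 to 844 CPM. The 11 macrophage and leukocyte markers summed to 594 to 910 CPM in control tumours and 676 to 1081 CPM in those labelled shDdr2. Pecam1, an adhesion molecule of endothelium, was at 42.3, 82.6 and 79.5 CPM in control 1 to 3 and at 28.2, 66.1 and 120.4 CPM in shDdr2 1 to 3. Csf1r, the macrophage growth factor receptor, was lowest in shDdr2 1 (17.04 CPM) and highest in shDdr2 3 (103 CPM), an order that 2 of the 11 markers had. Skeletal muscle markers summed to 9.98 to 112 CPM in control tumours and 403 to 2954 CPM in those labelled shDdr2, lowest of these in shDdr2 3. That library held the lowest value of Snai2 and Twist2 and the highest value of the other 8 EMT genes. Of the marker lists, the myogenic progenitor genes Pax7, Myf5, Myod1 and Myog, the Schwann cell gene Sox10, and Cd3e of T cells were not in the table. The part of stromal, vessel or leukocyte content in the levels of the EMT genes was not tested.

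**Figure D4:**
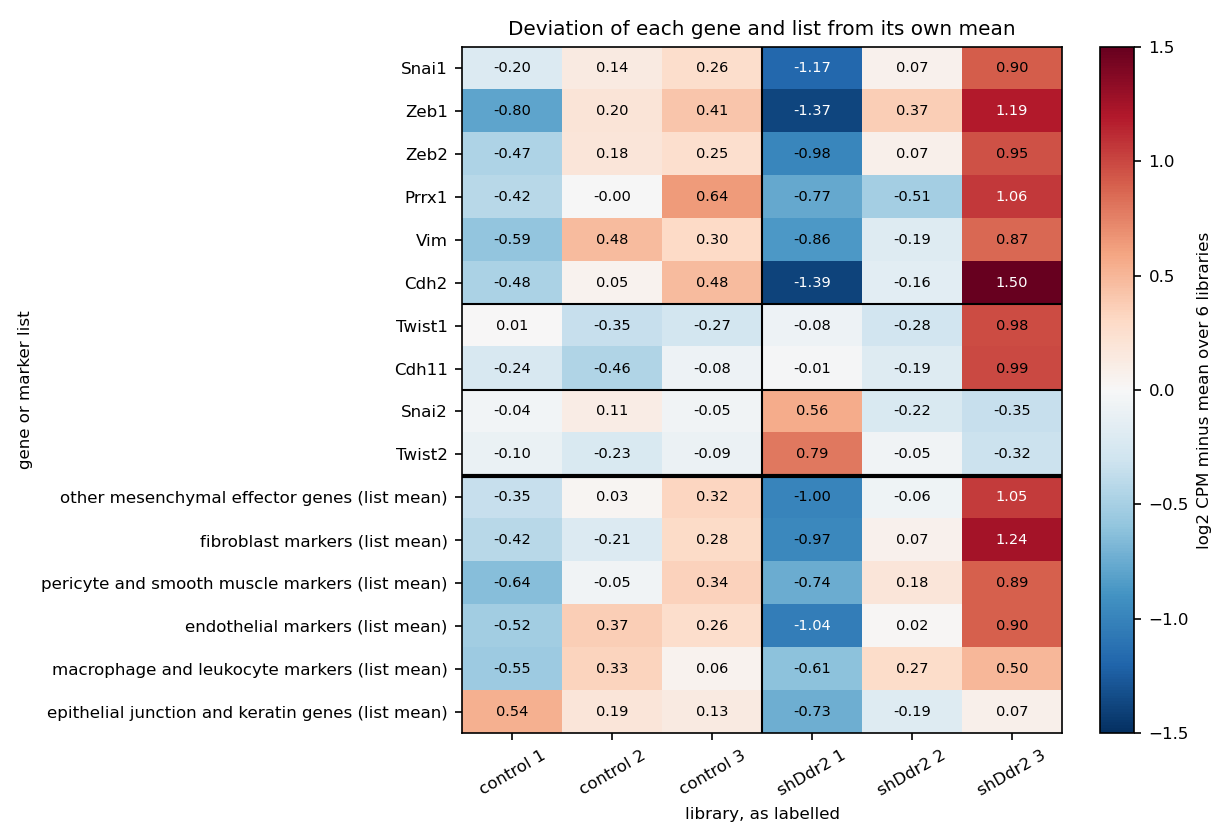
Deviation of log2 CPM from its mean over the 6 libraries, for the 10 genes (upper rows, in their 3 patterns) and for the means of 6 gene lists (lower rows); blue is below and red above the mean. The mesenchymal, fibroblast, pericyte, endothelial and leukocyte rows share with the upper 6 genes a low in shDdr2 1 and a high in shDdr2 3. The leukocyte row is nearly as low in control 1 (-0.55) as in shDdr2 1 (-0.61). Snai2 and Twist2 have the reverse order.

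Each gene was set against the mean log2 CPM of the fibroblast list and of the macrophage and leukocyte list, 20 relations over 6 libraries, with exact permutation tests over 720 pairings and Benjamini-Hochberg adjustment over the 20. With the fibroblast mean, Zeb1 had Pearson r = 0.94 (exact permutation p = 0.00694, adjusted p = 0.0357) and Spearman rho = 1.00 (exact permutation p = 0.00278, the smallest that ranks can give, adjusted p = 0.0556). Cdh2 had r = 0.98 (exact permutation p = 0.00417, adjusted p = 0.0357; rho = 0.94, p = 0.0167, adjusted p = 0.0667), and Zeb2 r = 0.96 (exact permutation p = 0.00833, adjusted p = 0.0357; rho = 0.94, p = 0.0167, adjusted p = 0.0667). Snai1 (r = 0.94), Prrx1 (r = 0.89) and Vim (r = 0.86) had exact permutation p of 0.0153, 0.0125 and 0.0208, with adjusted p of 0.0382, 0.0357 and 0.0417 and rho of 0.94, 0.83 and 0.83 (p = 0.0167, 0.0583 and 0.0583; adjusted p = 0.0667, 0.106 and 0.106). No Spearman relation passed after adjustment. Without the 2 libraries farthest from the median of the fibroblast mean, shDdr2 1 and shDdr2 3, r over the remaining 4 was 0.85 for Zeb1, 0.84 for Snai1, 0.83 for Cdh2, 0.79 for Zeb2, 0.62 for Prrx1 and 0.49 for Vim. All of these were lower than r over the 6 libraries. Prrx1 and Vim fell most, so their relations rested in part on the 2 libraries left out.

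The other 4 genes did not pass with the fibroblast mean. At an unadjusted exact permutation p under 0.05, 7 of the 10 genes were related to it, against 23.6% of the 14485 tested genes outside the fibroblast list. Snai2 had r = -0.86 (exact permutation p = 0.0403, adjusted p = 0.0620; rho = -0.89, p = 0.0333, adjusted p = 0.106) and -0.39 without those 2 libraries, so its relation rested on them. Twist2 had r = -0.74 (exact permutation p = 0.142, adjusted p = 0.177; rho = -0.54, p = 0.297, adjusted p = 0.372) and 0.40 without them. Cdh11 had r = 0.74 (exact permutation p = 0.138, adjusted p = 0.177; rho = 0.37, p = 0.497, adjusted p = 0.585) and Twist1 r = 0.68 (exact permutation p = 0.204, adjusted p = 0.227; rho = 0.14, p = 0.803, adjusted p = 0.892). Without the 2 libraries these were 0.65 and -0.62.

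With the macrophage and leukocyte mean, Zeb1 (r = 0.94), Zeb2 (r = 0.91), Vim (r = 0.90), Snai1 (r = 0.84) and Twist2 (r = -0.72) had adjusted exact permutation p of 0.0357, 0.0357, 0.0417, 0.0357 and 0.0429, from p of 0.0111, 0.00972, 0.0194, 0.00694 and 0.0236. Their rho values were 0.77, 0.83, 0.94, 0.83 and -0.77, with exact permutation p of 0.103, 0.0583, 0.0167, 0.0583 and 0.103 and none past adjustment (lowest adjusted p = 0.0667). Without control 1 and shDdr2 1, the 2 libraries farthest from the median of this mean, r was 0.63, 0.67, 0.55, 0.63 and -0.79. Here 6 of the 10 genes had an unadjusted exact permutation p under 0.05, against 28.6% of the 14487 tested genes outside the list. The permutations take the 6 libraries as exchangeable and ignore both the shRNA label and the shared replicate numbers. The fibroblast and leukocyte means come from the same 6 libraries and are not independent of each other, and 3 libraries a group are too few for r within a group.

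**Figure D5:**
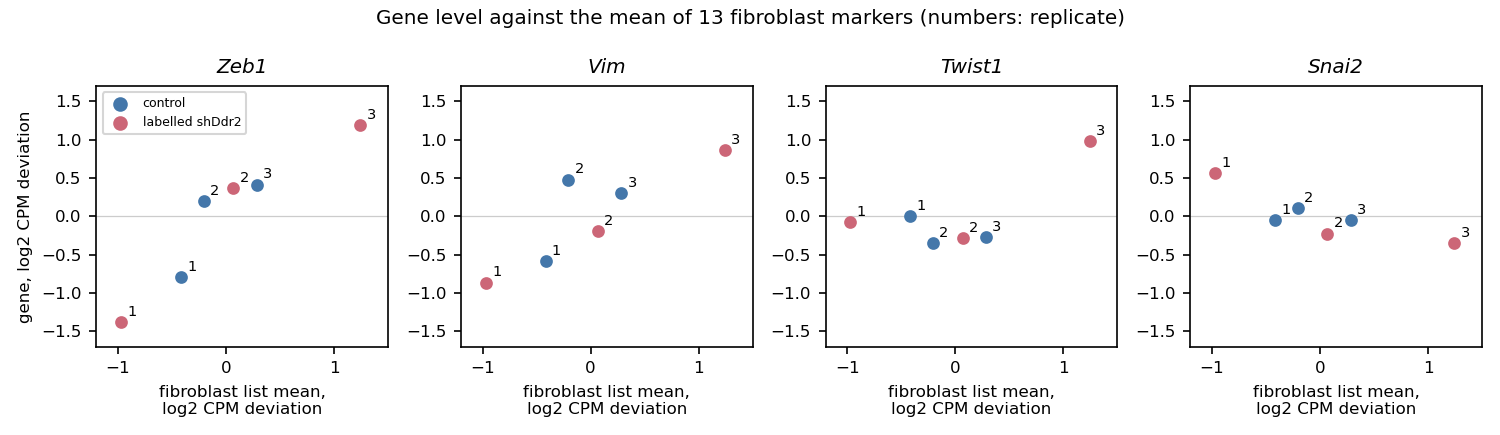
Deviation of log2 CPM of Zeb1, Vim, Twist1 and Snai2 (vertical axes) against that of the mean of 13 fibroblast markers (horizontal axes), 1 point per library with its replicate number. Zeb1 climbs at every step from shDdr2 1 to shDdr2 3. Vim is lowest and highest at the same ends, but control 2 (0.48) lies above shDdr2 2 (-0.19) and control 3 (0.30). Twist1 is flat apart from shDdr2 3, and Snai2 falls from 0.56 to -0.35, though not at every step.

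The genes most like each member in pattern were sought among those with an average log2 CPM of at least 3, by the root mean square distance between centred log2 CPM values over the 6 libraries. Nearest to Zeb1 were Myh10, a nonmuscle myosin heavy chain (distance 0.07), Dysf (0.10) and Man1c1 (0.15). Nearest to Vim were Afap1l1 (0.07), the membrane glycoprotein gene Cd200 (0.08) and Fbln1, the matrix protein fibulin 1 and a member of the fibroblast list (0.09). Zeb2 lay nearest to Gng2 (0.09), the collagen-binding integrin gene Itga1 (0.10) and Dbn1 (0.11). The nearest to Snai1 were the vascular genes Nrp1 (0.08) and Sox18 (0.09), with Arap3 (0.09), and those to Cdh2 were Cd93 (0.10) and the basement membrane genes Nid1 (0.10) and Lama4 (0.12). For Prrx1 they were Crispld2, Lpar1 and Csgalnact1 (0.15, 0.15 and 0.16).

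For Twist1 the nearest gene was Cdh11 (0.14), before Rian (0.20) and Cpxm2 (0.21). Cdh11 in turn lay nearest to Sema5a (0.18), Gask1b (0.22) and Cpm (0.22), since Twist1 is below the level set for this search. Twist2 lay nearest to Dusp14 (0.05) and to Utp23 and Utp18 (0.05 and 0.06), which encode factors of ribosomal RNA processing. Snai2 spanned 0.91 log2 units, under the range of 1 required, so no nearest genes are given for it.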

How the data were processed

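RNA of 6 whole tumours was sequenced after poly-T selection, per the labels' protocols. RSEM 1.2.31, Bowtie2 2.1.0, limma and GRCm38.p5 appear, without roles, in the submitters' processing notes. The authors deposited whole-number counts per Entrez gene, with a lowest count of 1, and log2 values that match log2(count / library factor + 1) in 91753 of 91770 cases after rounding. The sources used here give no annotation, gene filter or strand setting. Symbols came from RefSeq (14876 of 15295 numbers matched) and coordinates and lengths from GENCODE M21 on GRCm38.

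Counts were filtered with filterByExpr, scaled by TMM and fitted with edgeR 4.0.16 (robust quasi-likelihood, R 4.3.3), two-sided, with Benjamini-Hochberg adjustment over 14498 genes and a threshold of 0.05. Log2 CPM used a prior count of 2. DESeq2 1.42.0 and limma 3.58.1 were alternatives, with other scalings, filters, the replicate block and left-out libraries. Tested on simulated data with 200 of 14348 genes changed, the test made 122 calls for this comparison, 5 of unchanged genes. The genes, lists and alternatives were chosen with earlier results of these data known. The rule for named genes takes all 10 genes, Ddr2, the first 3 genes of each list in listed order, and the 3 genes nearest in pattern. Elf3, Rcor1, Krt8 and Krt19 were chosen after their values were seen, and Upk1b, Upk2, Upk3a, Myod1 and Myog are named only as present or absent. Replicate numbers come from the titles: deviations of same-numbered libraries correlated across genes with r of 0.299, 0.267 and 0.253. Those of control 3 and shDdr2 2 did so with r of 0.254. The other pairs of unlike number had r of -0.381 to -0.0859. What a number stands for is not given.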

Additional observations from a re-analysis of the deposited data

How the results depend on the processing

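The 10 genes were called in 0 of 15 alternatives each (14 for Cdh2, which a filter of 50 counts in 3 libraries removed). Twist1 and Cdh11 kept their direction in all 15. Of all tested genes, DESeq2 called 40, and the main edgeR fit and every other alternative called 0. With limma the count of genes with higher values was 5 of 10 with voom and 5 on the log2 values of the authors. Snai1 was then at -0.10 and -0.14, Snai2 at -0.014 and -0.013, Prrx1 at -0.13 and -0.15, and Cdh2 at -0.012 and -0.059. With library totals and no scaling, Snai2 was at -0.023. With the replicate block, Snai1 was at -0.11, Snai2 at -0.010 and Prrx1 at -0.15, and the block changed no call. Leaving out 1 library at a time moved Snai1 between -0.50 and 0.47, Snai2 between -0.29 and 0.21, Twist2 between -0.040 and 0.57, Zeb1 between -0.27 and 0.82, Zeb2 between -0.38 and 0.56, Prrx1 between -0.78 and 0.36, Vim between -0.62 and 0.30, and Cdh2 between -0.76 and 0.87. The count with higher values then ran from 4 to 10, and that without overlap from 0 to 2, where 8.14% to 25.1% of all genes had none (13.5% without shDdr2 3, which gave the 2). Without control 1 and shDdr2 1 together, Snai2 was at -0.33, Twist2 at -0.03 and Vim at 0.03, and 1 of the 10 genes had no overlap, against 38.8% of all genes. The cause was not tested. With the longest transcript as length, Vim was at 72.2 RPKM and Snai2 at 33.8 RPKM. Prrx1 was then at 5.17 RPKM, above Twist1 and Snai1, and Zeb2 (2.28) above Zeb1 (1.97). The relation of Twist2 to the leukocyte mean lost its call with RLE scaling (r = -0.70, adjusted exact permutation p = 0.0579) and with unscaled totals (r = -0.71, adjusted p = 0.0952). That of Cdh2 (r = 0.82, adjusted exact permutation p = 0.0532) passed with unscaled totals (r = 0.85, adjusted p = 0.0278) and a prior count of 0.5 (r = 0.82, adjusted p = 0.0486). Depth limits Cdh2 most, with 6 counts in its lowest library.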
